A study of Mus musculus with 35 samples.

Results

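The genes described here are 10 members of the interleukin-1 (IL-1) family, out of 36106 genes in the count table: the ligand genes Il1a, Il1b, Il33, Il18, Il36a, Il36b and Il36g, the receptor antagonist gene Il1rn, the decoy receptor gene Il1r2 and the IL-33 receptor gene Il1rl1. They were taken by symbol. Of the 10, 7 stood in the table under these symbols and 3, the IL-36 ligand genes, stood under the older symbols Il1f6 (Il36a), Il1f8 (Il36b) and Il1f9 (Il36g), which were matched by Ensembl identifier and RefSeq synonym. All 10 passed the filter on low counts in every comparison.

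RNA of skin biopsies was sequenced in 35 samples. They came from 19 females of the inbred mouse strain C57BL/6J, aged 10 weeks. Radiated skin of the left flank had received 25 Gy at 3.6 Gy per min, over 420 seconds, and was shaved afterwards. There were 4 radiated and 4 control samples at each of weeks 1, 2, 3 and 4 after radiation, and 3 samples of sham mice, which were not radiated; the site of the control biopsies is not given in the labels. Since 19 mice gave 35 samples, radiated and control libraries that share a week and a number were taken to be of 1 mouse, which the labels do not state. Control skin would then be that of a radiated mouse. The main tests left this pairing out, and it entered as a block in an alternative fit. No allele, transgene or drug is named for any group. Library totals ran from 17362853 to 28487885 counts, and 3 counts, taken as the floor, are at most 1.73e-05% of a library, with counting error alone covered. Keratinocyte genes of the basal and suprabasal epidermis were detected in every library, with a summed level of 5434 to 34880 counts per 1000000 (CPM). Genes of skeletal muscle had a lower summed level in radiated than in control skin: it was 3444 to 9360 against 20540 to 38370 CPM at week 3, and the median was 14030 against 34020 at week 1 and 19600 against 40500 at week 2. At week 4 the groups overlapped (2111 to 4840 against 1750 to 26690 CPM), and the sum was higher in the radiated library of replicate 1. Of these 7 genes, 0 passed in weeks 1 and 2, where 0% and 0.00577% of all genes did. The muscle sums of radiated and control libraries did not overlap in those weeks. At week 3, 6 of the 7 were lower, and 5 at week 4. Over all genes 27.2% and 48.4% were called in either direction at weeks 3 and 4. The part of muscle in the members' differences was not tested. The summed hair follicle level ran from 948.5 to 10830 CPM in sham skin and from 14.8 to 2950 CPM over all control and radiated libraries.

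Cytokines of the IL-1 family are alarm signals of barrier tissues. IL-1α, IL-33 and the IL-36 cytokines are made largely by keratinocytes and other structural cells and act when cells are damaged, whereas IL-1β is made mainly by activated myeloid cells as an inactive precursor, as is IL-18, and both precursors are cut by caspase-1 within inflammasomes. IL-1α and IL-1β share one receptor chain and the IL-36 cytokines another, while IL-33 and IL-18 each have their own; the bound chain recruits a partner chain and signals through MyD88 to NF-κB, and the family holds its own brakes: receptor antagonists for the IL-1 and IL-36 receptors, a decoy receptor for IL-1 and a binding protein for IL-18.

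Il1b, Il33, Il1rl1 and Il36g were higher in radiated than in control skin at weeks 3 and 4, and Il36a and Il36b at week 4. Il1a, Il1rn, Il1r2 and Il18 did not pass this test in any week. In edgeR's quasi-likelihood test with Benjamini-Hochberg adjustment, 0 of 10 members passed an adjusted p of 0.05 at week 1, where 0% of all 17578 genes tested did, and 0 of 10 at week 2, where 0.00577% did. At an unadjusted p under 0.05 the counts were 4 members in week 1 and 4 in week 2; the shares of all genes were 14.1% and 13.8%. DESeq2 called 3 and 1 members, and 2.41% and 4.23% of all genes. In edgeR with the mouse as a block, no member passed at week 1. Il1b and Il1rl1 passed at week 2 (adjusted p = 0.0193 and 0.0304). At week 3, 4 members were higher and 0 lower, against 27.2% of all genes called in either direction and 13.6% called higher. At week 4, 6 were higher and 0 lower, against 48.4% and 24.2%. The members' median log2 fold change was 0.67, 1.23, 1.34 and 1.17 in weeks 1 to 4, beside an all-gene median of 0.05, 0.00, 0.08 and 0.02. In whole tissue, a change in the number of cells of a type and a change in RNA per cell cannot be told apart.

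**Figure D1:**
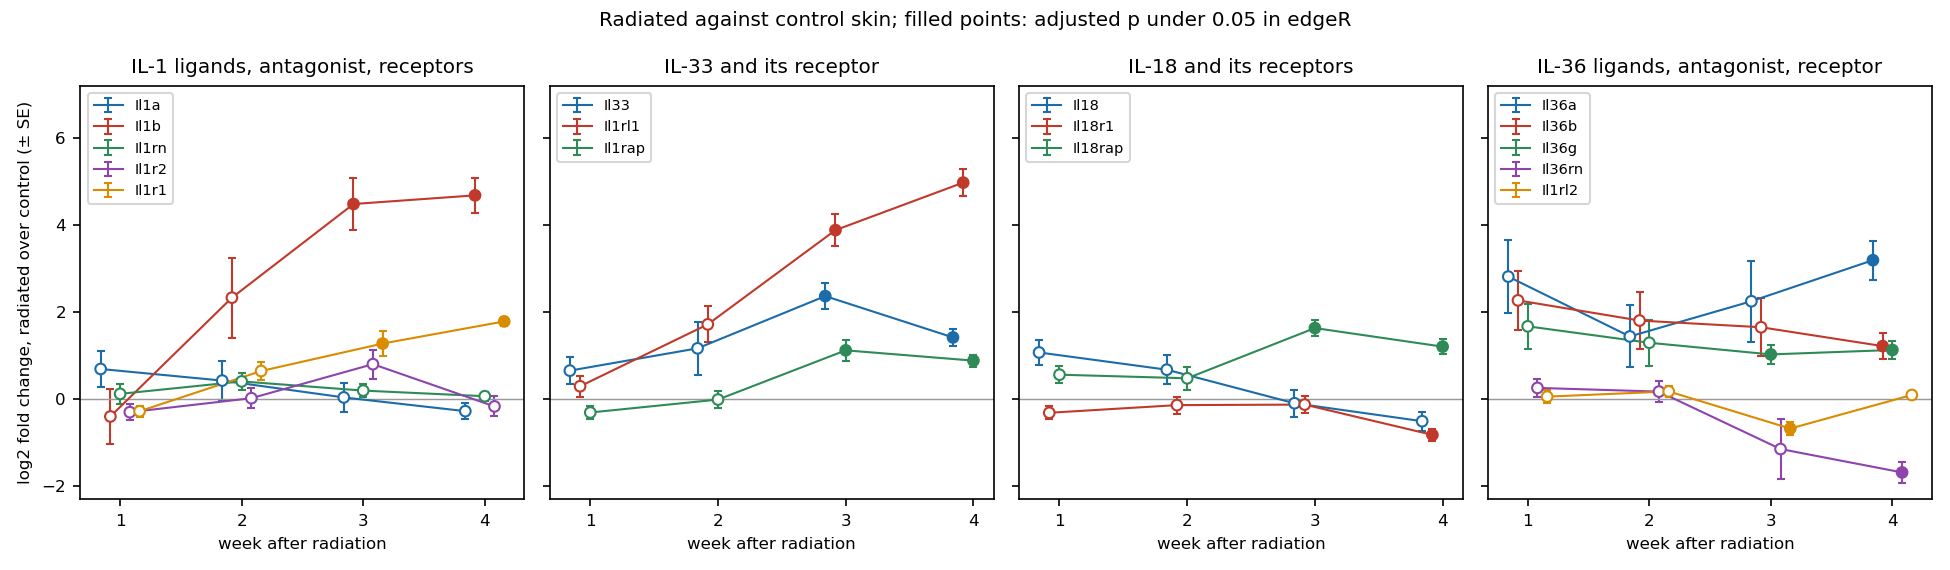
Log2 fold change of radiated over control skin (y axis, ± SE, n = 4 against 4) by week (x axis) for the members and for the partner receptors and antagonist of the family, in 4 panels by cytokine; filled points passed an adjusted p of 0.05 in edgeR. Il1b and Il1rl1 reach 4.69 and 4.98 at week 4, Il36rn falls to -1.69, and Il1rn stays between 0.07 and 0.41.

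The 250 bases upstream of the annotated starts are shown for Il1b, Il1rl1 and Il33, the 3 members with the largest called differences at week 3, as RefSeq gives them on GRCm38.p6, 5′ to 3′ on the strand of the gene, with capitals marking matches to the C/EBP motif TTNNGNAA on either strand. C/EBP factors are bZIP transcription factors of myeloid cells and keratinocytes.
Il1b (chr2:129371140-129371389, minus strand): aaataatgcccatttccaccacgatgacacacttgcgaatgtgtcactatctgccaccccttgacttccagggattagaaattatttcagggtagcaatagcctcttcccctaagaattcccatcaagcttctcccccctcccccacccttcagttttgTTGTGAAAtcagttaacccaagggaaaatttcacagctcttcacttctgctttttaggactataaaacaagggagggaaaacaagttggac
Il1rl1, upstream start (chr1:40429320-40429569, plus strand): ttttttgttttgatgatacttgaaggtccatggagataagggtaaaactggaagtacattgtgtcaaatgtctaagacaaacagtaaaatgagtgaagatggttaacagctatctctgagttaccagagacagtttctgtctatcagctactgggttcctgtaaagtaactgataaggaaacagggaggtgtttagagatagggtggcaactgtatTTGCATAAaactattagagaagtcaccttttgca
Il1rl1, downstream start (chr1:40439379-40439628, plus strand): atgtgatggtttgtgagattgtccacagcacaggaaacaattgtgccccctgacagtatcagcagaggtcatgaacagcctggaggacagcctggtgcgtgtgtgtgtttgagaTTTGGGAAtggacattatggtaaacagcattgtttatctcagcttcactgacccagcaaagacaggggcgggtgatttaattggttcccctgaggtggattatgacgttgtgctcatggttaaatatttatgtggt
Il33, upstream start (chr19:29924863-29925112, plus strand): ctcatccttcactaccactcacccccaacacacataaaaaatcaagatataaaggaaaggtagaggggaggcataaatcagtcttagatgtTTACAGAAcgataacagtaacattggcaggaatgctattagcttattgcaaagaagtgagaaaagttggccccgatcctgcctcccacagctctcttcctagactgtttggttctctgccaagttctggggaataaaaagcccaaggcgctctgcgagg
Il33, downstream start (chr19:29945540-29945789, plus strand): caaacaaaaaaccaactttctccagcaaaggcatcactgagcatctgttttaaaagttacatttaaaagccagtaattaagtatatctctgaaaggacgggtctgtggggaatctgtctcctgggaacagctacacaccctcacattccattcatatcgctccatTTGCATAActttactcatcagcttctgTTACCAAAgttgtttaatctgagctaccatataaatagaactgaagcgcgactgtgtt
Each of these 5 windows held at least 1 match, searched on both strands, as did 36.8% of 32851 promoter windows of this length. In the Il1b window the match TTGTGAAA lay 91 to 84 bases before the start. Windows of Il1a and Il1rn, which did not pass in any week, held C/EBP matches as well. The motif TGANTCA of AP-1 was in the windows of Il1a, Il1rn and Il36b (6.75% of all windows), the STAT motif TTCNNNGAA in those of Il1r2 and Il36g (7.02%), and the NF-κB motif was in none of the members' windows (7.25%). These matches are a description of the letters; no binding was measured, and no window was matched for Il36a.

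Il1b, the gene of IL-1β on the minus strand of chromosome 2 (129364570 to 129371139, GRCm38), held 0.75, 1.00 and 0.26 CPM in the 3 sham libraries. The 4 control libraries of week 4 held 3.61, 4.78, 3.12 and 1.35 CPM, and the 4 radiated ones 119.9, 64.99, 46.8 and 93.9 CPM. At week 3 the control libraries held 8.77, 2.13, 6.18 and 7.36 CPM and the radiated ones 219, 175, 96.9 and 42.8 CPM. Every radiated library of weeks 3 and 4 thus lay above every control and sham library, and in both weeks the lowest radiated value was several times the highest control value. On the log2 scale radiated skin was higher by 4.49 (SE 0.59, adjusted p = 0.001638) at week 3 and by 4.69 (SE 0.41, adjusted p = 1.801e-05) at week 4, in 4 of 4 pairs each. At week 2 the radiated libraries held 1.55, 7.16, 36.8 and 18.8 CPM against 0.86, 1.29, 8.17 and 2.40 CPM in control skin, so the ranges overlapped, although the radiated sample was the higher one in 4 of 4 pairs. That difference, 2.33 (SE 0.92), did not pass without the mouse in the model (adjusted p = 0.299) and ran from 1.52 without radiated replicate 3 to 3.42 without control replicate 3. It passed with the mouse as a block (2.21, SE 0.33, adjusted p = 0.0193). At week 1 radiated and control libraries were mixed (1.96 to 6.01 against 0.80 to 9.72 CPM).

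The radiated minus control difference of Il1b changed over the 4 weeks (F test of the interaction of week and radiation, adjusted p = 0.004055; 15.6% of 19338 genes passed); without the libraries numbered 3 it did not pass. No step from one week to the next passed for Il1b (0% of genes passed from week 1 to 2 and 0.419% from week 3 to 4, with 0 members called): the change of the difference was 2.74 (SE 1.07) from week 1 to 2, 2.15 (SE 1.04) from week 2 to 3 and 0.22 (SE 1.02) from week 3 to 4. In each of the steps from week 1 to 2 and from week 3 to 4, 2 members were at an unadjusted p under 0.05 in edgeR, as were 6.7% and 13.9% of all genes, and DESeq2 called 0 members, against 0.0465% and 2.2%. Across the 9 groups the mean of Il1b rose from 0.67 CPM in sham skin through 3.18 to 6.11 CPM in the 4 control groups and radiated skin of week 1, which all overlapped their neighbours, to 16.1 CPM in radiated skin of week 2, 81.4 of week 4 and 133 of week 3. The last pair overlapped each other, and both stood clear of every group below.

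Neutrophil and macrophage genes were also higher in radiated skin of weeks 3 and 4. The summed level of 11 neutrophil genes (among them S100a8, S100a9, Cxcr2 and Ly6g) had a median of 19.0 CPM in control skin of week 4 (16.6 to 30.5), 431 in radiated skin of week 4 (257 to 534) and 293 in radiated skin of week 3 (118 to 987), against 16.7 in its control (12.9 to 18.5). Of the 8 that could be tested, 7 were higher at week 3 and 8 at week 4. A gene near 0 in control skin was tested only where radiated skin raised it above the filter, so such counts are a description; Ly6g was at 0 in every library of sham skin, of control skin of weeks 1, 2 and 4 and of radiated skin of week 2, and no marker of the list was at 0 throughout radiated skin of week 3 or 4. The sum of 10 monocyte and macrophage genes was 265 CPM in control skin of week 4 (221.5 to 326) and 1626 in radiated skin (1315 to 1894), and 724 (358 to 1046) and 1896 (998.6 to 2469) at week 3. At week 3, 7 of these 10 genes were higher, and at week 4 all 10; over all genes 13.6% and 24.2% were higher, shares that also stand behind the counts of the other marker lists given below. At week 2 the lists ordered the radiated libraries differently. The neutrophil sum was 25.1, 14.4, 47.9 and 58.9 CPM, highest in replicates 3 and 4, which also had the most Il1b. The sum of 8 Langerhans and dendritic cell genes, 627, 275, 925.5 and 702.5 CPM, was highest in the same replicates. By the macrophage list, radiated replicate 1 had the highest macrophage sum of that group, 2034 CPM, and its lowest Il1b, 1.55 CPM, whereas replicate 3 had 562 CPM and the highest Il1b, 36.8 CPM. The part of these lists in the rise of Il1b was not tested.

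Il1a, the gene of IL-1α, lies next to Il1b on chromosome 2 (129299610 to 129309972) and did not pass the test in any week. Its 4 radiated libraries of week 4 held 6.27, 6.98, 5.32 and 7.90 CPM and the control ones 9.92, 6.46, 8.08 and 7.86 CPM, with overlapping ranges and a difference of -0.28 (SE 0.18, adjusted p = 0.224). At week 3 the difference was 0.04 (SE 0.34, adjusted p = 0.948). In weeks 1 and 2, 1 radiated library in each stood apart at 19.6 and 18.5 CPM, where the others lay between 3.76 and 7.90 CPM.

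The antagonist and the decoy receptor, which limit IL-1 signalling, did not pass this test in any week. Il1rn encodes the IL-1 receptor antagonist, which occupies the receptor without signalling. It held 49.0, 48.2, 44.9 and 47.5 CPM in radiated skin of week 4 and 49.3, 51.7, 39.6 and 41.7 CPM in its control, and the radiated values lay inside the control range. The log2 fold change was 0.12, 0.41, 0.20 and 0.07 in weeks 1 to 4, with standard errors of 0.22, 0.20, 0.15 and 0.10, and no week passed. Il1r2 encodes the decoy receptor, which binds IL-1 and does not signal. At week 3 its radiated libraries held 66.8, 49.0, 32.9 and 20.6 CPM and its control ones 32.5, 23.9, 22.1 and 20.7 CPM; the ranges overlapped through the lowest radiated library, and the difference of 0.80 (SE 0.33) did not pass (adjusted p = 0.0981). Without that library, replicate 4, Il1r2 was 1.03 higher and passed (adjusted p = 0.0171), as it did in 1 fit of all 35 samples (0.77, adjusted p = 0.0277); without radiated replicate 1 it was 0.49 (adjusted p = 0.254). At week 4 the difference was -0.17 (SE 0.23, adjusted p = 0.573).

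The log2 ratio of Il1rn to Il1b, on CPM plus 0.5, was 5.22 ± 0.39 (SD, n = 3) in sham skin, 3.25 ± 0.80 (SD, n = 4) in control and -0.83 ± 0.97 in radiated skin of week 3, and 3.72 ± 0.54 and -0.69 ± 0.55 at week 4. The ratio was above 0 in every sham and control library of these weeks, and below 0 in all 4 radiated libraries of week 4 and in 3 of week 3. CPM were not scaled to transcript length here (2474 bases for Il1rn, 1356 for Il1b), so 0 does not mark equal numbers of transcripts. The radiated and control libraries did not overlap in either week (exact two-sided permutation p = 0.0286 in both, the smallest that 4 against 4 allows, and 0.0686 after adjustment over 12 ratio tests, so none of the 12 passed). The log2 ratio of Il1r2 to Il1r1, decoy to signalling receptor, fell by 2.00 at week 4, from -1.55 ± 0.14 (SD, n = 4) in control to -3.55 ± 0.48 in radiated skin (exact permutation p = 0.0286, sign-flip p = 0.125). In weeks 1 to 3 the radiated and control libraries of this ratio overlapped.

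**Figure D2:**
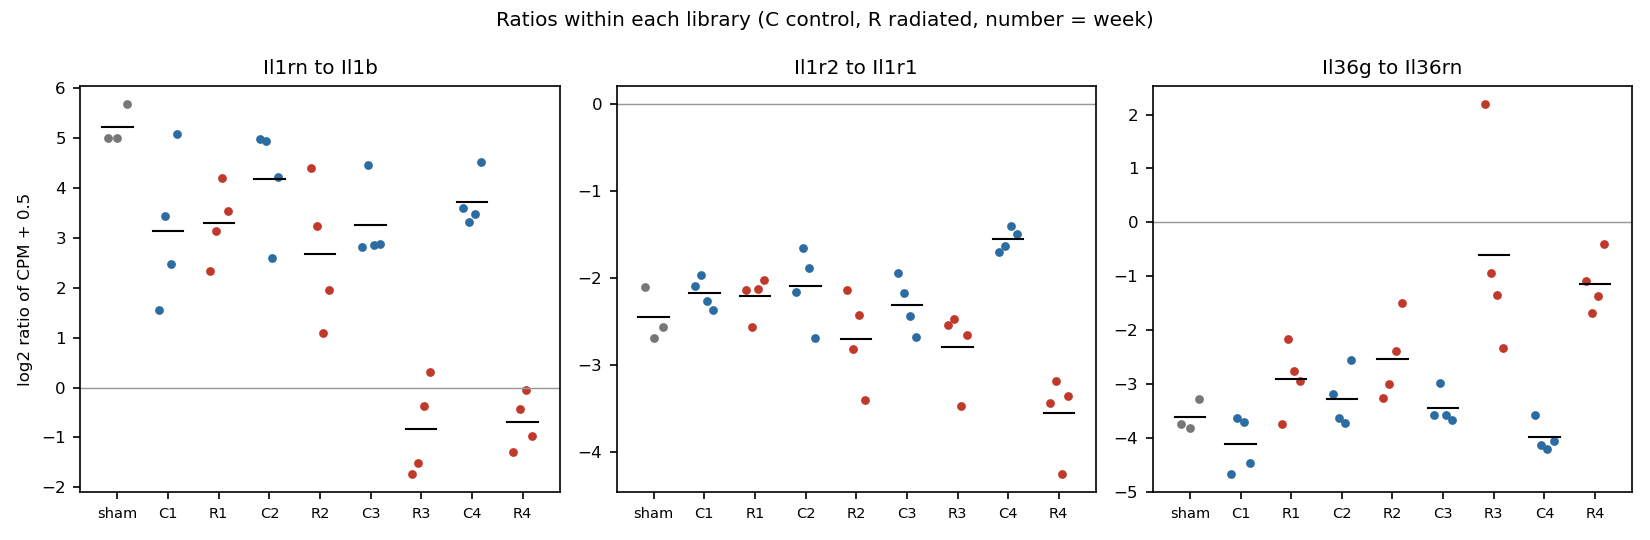
Log2 ratio of CPM + 0.5 between 2 genes of the same library (y axis) in each group (x axis; C control, R radiated, the number is the week), with 1 point per library and a bar at the mean. Il1rn to Il1b drops from 5.22 in sham skin to -0.69 in radiated skin of week 4, and Il36g to Il36rn rises from -3.60 to -1.13.

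IL-33 and its receptor both rose at weeks 3 and 4. Il1rl1, the gene of the IL-33 receptor ST2 on chromosome 1 (40429570 to 40465415), is known from mast cells, group 2 innate lymphoid cells and regulatory T cells, and also codes for a soluble form that captures IL-33; the gene-level counts do not separate the forms. Its 4 radiated libraries held 263, 206, 145 and 86.9 CPM at week 3 and 200.1, 211, 179.7 and 410.5 CPM at week 4. Control libraries held 9.40, 15.6, 14.6 and 8.79 CPM at week 3 and 6.26, 9.25, 9.53 and 6.89 CPM at week 4, and the 3 sham libraries 8.75, 8.42 and 5.46 CPM. Every radiated library of both weeks stood above every control and sham library. Il1rl1 was higher by 3.89 (SE 0.37, adjusted p = 0.000713) on the log2 scale at week 3 and by 4.98 (SE 0.31, adjusted p = 3.45e-06) at week 4. At week 2 the radiated libraries, 21.0, 9.66, 19.2 and 43.8 CPM, lay above the control ones, 9.60, 4.74, 6.82 and 7.40 CPM. Radiated replicate 2 was close to the highest control library and the other 3 were well above it. Il1rl1 and Il36b were the members whose groups did not overlap at week 2, as 3.91% of all genes did in the higher direction. The week 2 difference of Il1rl1, 1.72 (SE 0.42), did not pass without the mouse in the model (adjusted p = 0.145) and passed with the block (1.55, SE 0.28, adjusted p = 0.0304) or without radiated replicate 2.

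Il1rl1 was the 1 member whose radiated minus control difference changed in a single step: it grew by 2.17 (SE 0.51, adjusted p = 0.01196) from week 2 to week 3, where 6.9% of genes passed. With the mouse as a block Il33 passed too in this step (1.65, adjusted p = 0.0246). Without the libraries numbered 1, or without those numbered 3, no member passed. Over all 4 weeks the F test of Il1rl1 gave an adjusted p of 6.6e-06.

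Il33, on chromosome 19 (29925114 to 29960718), codes for a nuclear alarmin of keratinocytes, fibroblasts and endothelial cells. Radiated skin of week 3 held 132.7, 103, 169 and 81.7 CPM against 25.2, 34.7, 21.1 and 15.2 CPM in control skin. At week 4 the values were 119, 152, 113 and 155 CPM against 37.4, 62.0, 63.7 and 39.7 CPM. The groups did not overlap in either week, and control skin of week 4 was itself the highest of the control groups. Il33 was higher by 2.37 (SE 0.30, adjusted p = 0.001438) at week 3 and by 1.42 (SE 0.20, adjusted p = 0.000266) at week 4. Against sham skin, with 41.8, 22.1 and 12.0 CPM, the differences were 2.31 (SE 0.45) and 2.45 (SE 0.39). The F test over weeks did not pass for Il33 (adjusted p = 0.212) unless the mouse was a block (adjusted p = 0.0163).

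Mast cell genes moved with Il1rl1 and Il33. The summed level of 10 mast cell genes, such as Cpa3 and Kit, had a median of 50.9 CPM in control (48.1 to 52.3) and 145 CPM in radiated skin of week 4 (107 to 148), and of 33.6 (28.9 to 45.2) and 73.0 CPM (51.5 to 117) at week 3. At week 4, 8 of the 10 were higher and 1, Mrgprb2, a receptor of connective tissue mast cells, was lower (-2.81). The summed level of 12 T and innate lymphoid cell genes had a median of 1328 CPM (1244 to 1444) in control and 573 CPM (525 to 645.5) in radiated skin of week 4. Of the 12, 7 were higher and 2, Gata3 (-2.95) and Cd3e (-1.23), were lower, so the sum does not follow most of its genes. Thy1 is in both this list and the fibroblast list. The sum of 7 fibroblast genes had a median of 2930 CPM (1844 to 3437) in control and 24860 CPM (18710 to 31410) in radiated skin, and all 7 were higher. The sum of 6 endothelial genes was 245 to 339.5 CPM in control and 439 to 574 CPM in radiated skin of week 4, with 4 of 6 higher, and that of 8 basal and suprabasal epidermis genes was 24200 to 26380 and 11650 to 20580 CPM. At week 3 the T and innate lymphoid sum was 812 to 946 CPM in control and 402 to 753 CPM in radiated skin, without overlap. The groups overlapped in the fibroblast sum (1741 to 8843 CPM in control and 7241 to 14460 CPM in radiated skin), the endothelial sum (260.0 to 395 and 244 to 556 CPM) and the epidermal sum (15890 to 21380 and 5434 to 34880 CPM). None of these lists was tested for its part in the rise of Il1rl1 and Il33.

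Il18, on chromosome 9 (50554827 to 50581840), codes for IL-18, which drives interferon gamma in lymphocytes and is made by keratinocytes and macrophages. At week 1 the radiated libraries held 9.78, 22.5, 10.4 and 10.3 CPM and the control ones 6.33, 6.65, 5.93 and 6.43 CPM, so radiated skin lay above control skin throughout. Il18 and Il36b were the members whose groups did not overlap at week 1, as 3.46% of all genes did in the higher direction. The log2 fold change of Il18 was 1.07 (SE 0.28) and did not pass in edgeR (adjusted p = 0.203), whereas DESeq2 gave an adjusted p of 0.0226; without radiated replicate 2 it was 0.68 (adjusted p = 0.3172). At week 4 it was -0.51 (SE 0.21, adjusted p = 0.0747), with 5.93, 5.70, 7.54 and 3.75 CPM in radiated and 8.49, 9.56, 8.29 and 6.55 CPM in control skin, which overlapped through 1 library; with the mouse as a block it was -0.54 and passed (adjusted p = 0.0477), as it did without radiated replicate 3. At week 3 the difference was -0.10 (SE 0.32) and turned to 0.16 when libraries were scaled by their total counts. The F test over the 4 weeks passed (adjusted p = 0.0399) and did not with the block (adjusted p = 0.0659) or without the libraries numbered 1, 2 or 3.

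The 3 IL-36 ligand genes, which lie within 72.5 kb of one another on chromosome 2, were higher in radiated skin at week 4 and stood high in single radiated libraries from week 1. IL-36 cytokines come mostly from keratinocytes of inflamed epidermis. At week 4, Il36a (24215418 to 24225702) held 15.8, 13.5, 4.23 and 7.81 CPM in radiated and 1.59, 1.11, 1.28 and 0.62 CPM in control skin. Il36g (24186476 to 24193568) held 36.8, 29.0, 19.3 and 28.6 CPM against 17.0, 10.9, 11.3 and 13.2 CPM. Il36b (24153161 to 24160519) held 4.65, 5.35, 2.55 and 2.59 CPM against 2.07, 1.37, 1.71 and 1.42 CPM. None of the 3 overlapped between the groups: 6 members did not overlap at week 4, as 22.8% of all genes did in the higher direction, and 4 members at week 3, as 14.4% did. The log2 fold change at week 4 was 3.19 (SE 0.45, adjusted p = 0.000286) for Il36a. It was 1.13 (SE 0.21, adjusted p = 0.001677) for Il36g and 1.22 (SE 0.30, adjusted p = 0.00768) for Il36b. In 1 fit of all 35 samples, which shares the spread of all groups, Il36b and Il36g no longer passed (adjusted p = 0.143 and 0.0513) at differences of 1.21 and 1.12. The summed level of 6 wound-type keratinocyte genes (Krt6a, Krt6b, Krt16, Krt17, Sprr1b and Sprr2d) moved with the ligands, with a median of 528 CPM in control (494.5 to 554) and 11430 CPM in radiated skin (10290 to 13520) at week 4. At week 3 it was 786.5 (708 to 853) and 9817 CPM (4582 to 15850), and 6 of 6 genes were higher in both weeks. The basal and suprabasal sum had a median of 25150 CPM in control and 15870 CPM in radiated skin of week 4; the part of both lists in the ligands' rise was not tested.

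At week 3 Il36g was the 1 gene of the 3 to pass in edgeR, at 1.03 (SE 0.21, adjusted p = 0.008094), with 29.4, 18.8, 23.6 and 29.7 CPM in radiated and 15.2, 14.4, 11.8 and 9.36 CPM in control skin; in the fit of all samples it did not (adjusted p = 0.0852). Whether the 3 genes differ from each other in this was not tested. The week 3 differences of Il36a and Il36b were larger and less even: 2.25 (SE 0.93, adjusted p = 0.0985) and 1.65 (SE 0.67, adjusted p = 0.0937). With the mouse as a block Il36a was 1.33 (SE 1.20, adjusted p = 0.4596). DESeq2 called both, Il36a at 2.24 (adjusted p = 0.0232) and Il36b at 1.64 (adjusted p = 0.0429), and the fit of all samples called Il36a (2.23, adjusted p = 0.0433). Il36a also passed without radiated replicate 2 and Il36b without radiated replicate 1, while without radiated replicate 4 they were 1.48 and 1.07 and did not. At week 3 Il36a held 0.96 and 0.70 CPM in radiated replicates 1 and 2 and 11.1 and 16.6 CPM in replicates 3 and 4, so that replicate 1 lay within the control range, replicate 2 below it, and the other pair above every control library. At week 1 the log2 fold changes were 2.82 (SE 0.84) for Il36a, 2.27 (SE 0.67) for Il36b and 1.67 (SE 0.52) for Il36g, and none passed in edgeR (adjusted p = 0.232, 0.232 and 0.244); without radiated replicate 1, Il36a did (3.19, adjusted p = 0.0426), and DESeq2 called Il36b (adjusted p = 0.0209) and Il36g (adjusted p = 0.0276).

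Il36rn, the gene of the IL-36 receptor antagonist, lies beside the ligand genes and was lower in radiated skin at week 4, when they were higher. In control skin of week 4 it held 206.7, 199, 214.5 and 227 CPM, and in radiated skin 79.0, 94.1, 50.6 and 37.8 CPM, with no overlap and a difference of -1.69 (SE 0.25, adjusted p = 0.0003995). The basal and suprabasal epidermis sum was lower too in radiated skin of week 4 (11650 to 20580 against 24200 to 26380 CPM). Its part in the fall of Il36rn was not tested. At week 3 the radiated libraries of Il36rn spread from 6.07 through 36.6 and 60.5 to 150.8 CPM, and the difference of -1.15 (SE 0.69) did not pass (adjusted p = 0.239). At weeks 1 and 2 Il36rn differed by 0.26 (SE 0.22) and 0.17 (SE 0.25), neither of which passed. The log2 ratio of Il36g to Il36rn was higher in radiated skin at weeks 3 and 4, going from -3.44 ± 0.32 (SD, n = 4) to -0.61 ± 1.95 at week 3 and from -3.98 ± 0.28 to -1.13 ± 0.55 at week 4, without overlap (exact permutation p = 0.0286 in each). The large spread at week 3 comes with replicate 1, at 2.19, and the difference without 1 library ran from 1.91 to 3.41. Il1rl2, the signalling IL-36 receptor, was lower at week 3 (-0.68, SE 0.14, adjusted p = 0.008104) and did not pass at week 4 (0.09, SE 0.10, adjusted p = 0.455).

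The libraries of a group did not carry the same mixture of members. In radiated skin of week 1, replicate 2 had the highest level of Il1a, Il1b, Il1rn, Il33, Il18, Il36a, Il36b and Il36g, with 80.1 CPM of Il33, 18.2 of Il36a and 59.9 of Il36g. In radiated skin of week 2, replicate 4 had the highest Il1a, Il33, Il1rl1, Il18, Il36a, Il36b and Il36g, with 119.1, 10.6 and 86.3 CPM of those same 3 genes. The wound-type keratinocyte sum was highest in the same libraries, at 14360 and 13950 CPM, where the other radiated libraries of weeks 1 and 2 had 359.5 to 4993 CPM and control libraries of all weeks 488 to 991 CPM. Without that library the log2 differences of Il36a, Il36b and Il36g were 1.87, 1.63 and 0.97 at week 1 and 0.19, 0.66 and 0.46 at week 2. That of Il33 went from 0.65 to 0.19 at week 1 and from 1.17 to 0.07 at week 2. Il1a went from 0.69 to 0.07 at week 1, and Il18 from 0.68 to 0.23 at week 2. The part of this list in the members' levels was not tested.

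Within radiated skin of week 3 the members differed in which library led. Il1b, Il1rl1 and Il1r2 were highest in replicate 1 and lowest in replicate 4. Il36a, Il36b, Il36g, Il18 and Il36rn were highest in replicate 4, although Il36g was nearly as high in replicate 1. Replicate 4 also had the largest summed level of 8 basal and suprabasal epidermis genes, 34880 CPM, and the smallest of neutrophil genes, 118 CPM; replicate 1 had the smallest epidermal sum, 5434 CPM, and the largest neutrophil sum, 987 CPM. Il33 followed neither order, with its highest value in replicate 3. With 4 libraries no relation across samples was computed.

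**Figure D3:**
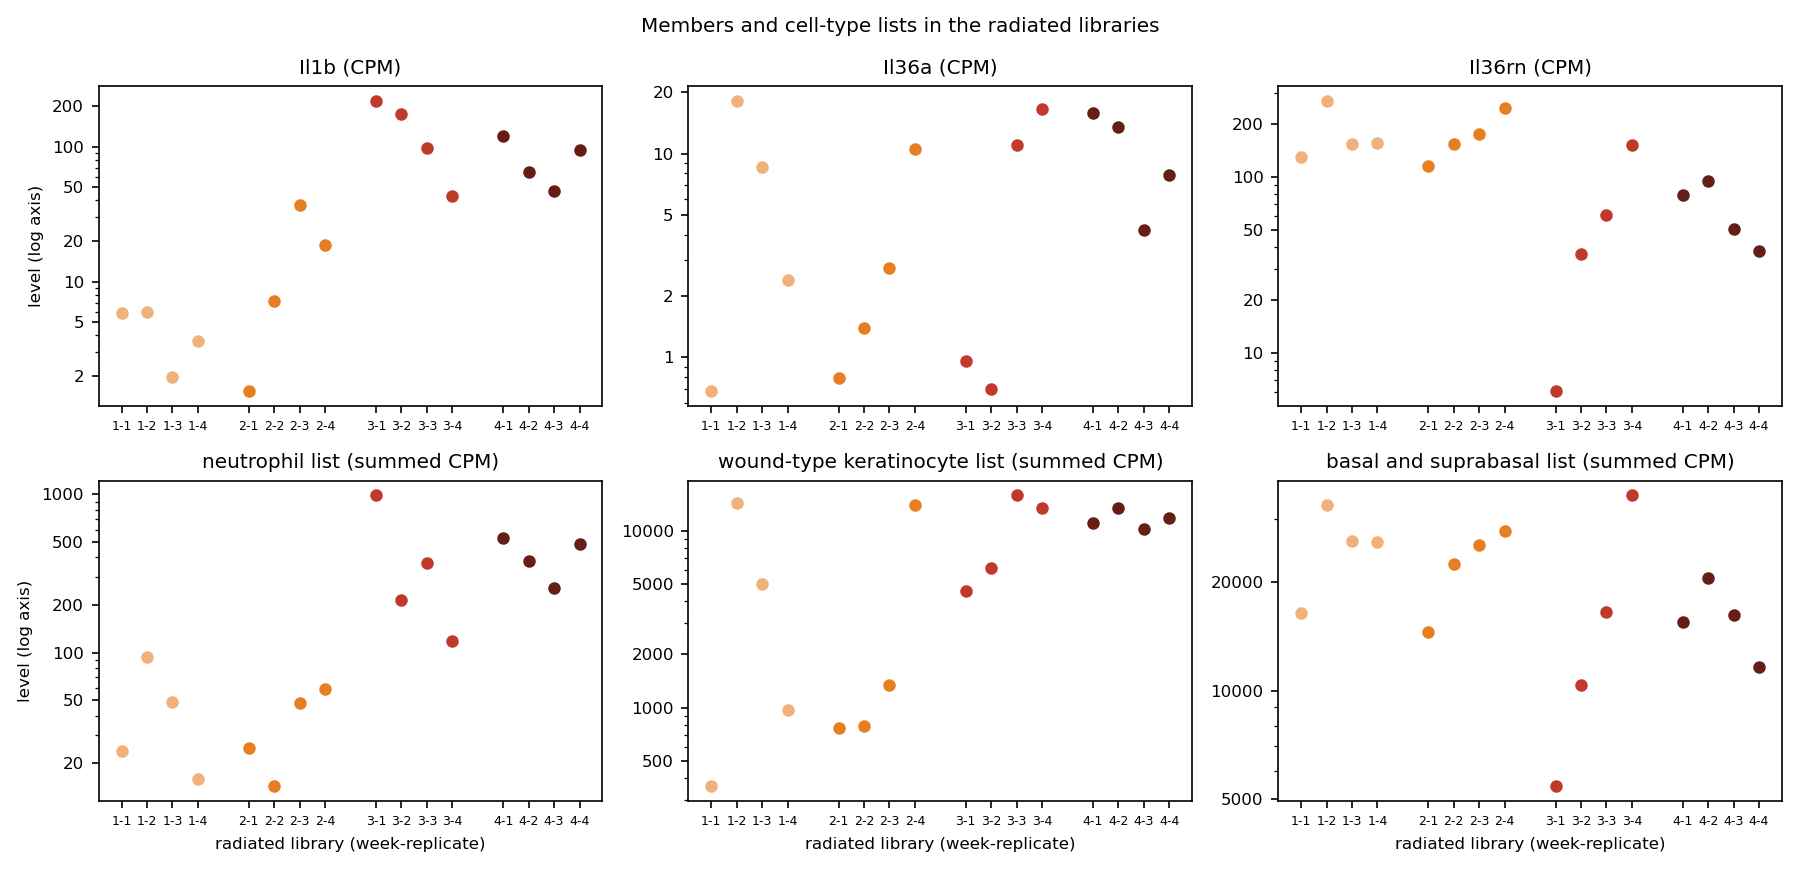
Levels in the 16 radiated libraries (x axis: week and replicate) of Il1b, Il36a and Il36rn in CPM and of the summed CPM of the neutrophil, wound-type keratinocyte and basal and suprabasal epidermis lists (y axis, log scale), 1 point per library. Libraries 1-2 and 2-4 stand high in Il36a and in the wound-type list (14360 and 13950 CPM), and in week 3 library 3-1 has 219 CPM of Il1b and 6.07 of Il36rn, and library 3-4 has 42.8 and 150.8.

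Neighbouring family genes included some that were higher and some that were lower at week 4. On chromosome 1, 6 receptor genes lie in 477.6 kb, in the order Il1r2, Il1r1, Il1rl2, Il1rl1, Il18r1 and Il18rap, all on the plus strand. At week 4, Il1r1, the signalling IL-1 receptor (1.79, SE 0.11, adjusted p = 3.53e-06), Il1rl1 and Il18rap, the second chain of the IL-18 receptor (1.21, SE 0.17, adjusted p = 0.00028), were higher. Il18r1, the ligand-binding chain of the IL-18 receptor, was lower (-0.82, SE 0.14, adjusted p = 0.001067), and Il1r2 and Il1rl2 did not pass. On chromosome 2, 6 genes lie in 198.3 kb: the 3 IL-36 ligands were higher at week 4, Il36rn was lower, and Il1f10 (-1.70, SE 0.87, adjusted p = 0.136) and Il1rn did not pass.

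**Figure D4:**
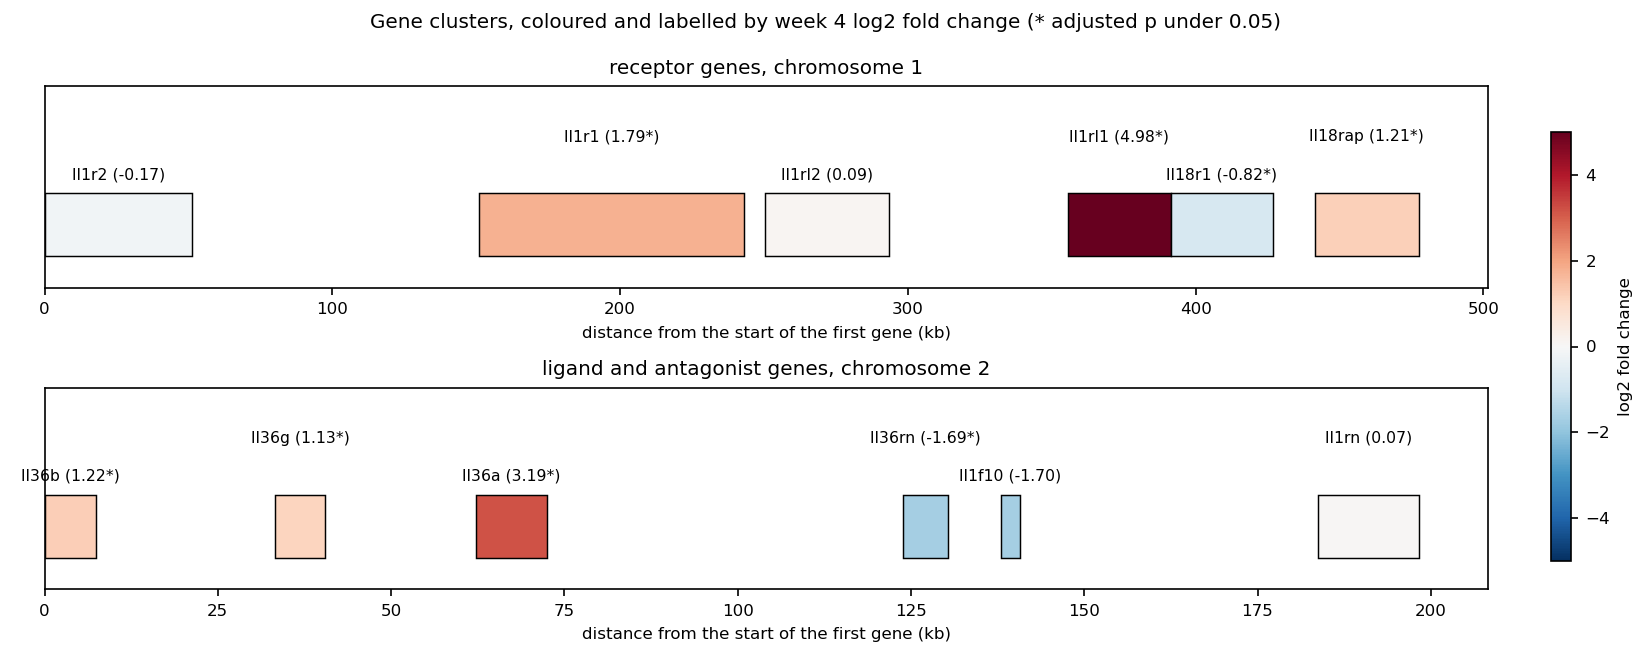
The 2 gene clusters of the family, with genes drawn to scale by distance from the start of the first gene (x axis, kb) and coloured and labelled by the week 4 log2 fold change of radiated over control skin; a star marks an adjusted p under 0.05. Il1rl1 (4.98) stands next to Il18r1 (-0.82), and the IL-36 ligands (1.13 to 3.19) next to Il36rn (-1.69).

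Of the 11 other ligands and receptors of the family, 3 were higher and 1 lower at week 3, and 4 were higher and 2 lower at week 4, with 5 not passing, against 27.2% and 48.4% of all genes called; the list's median log2 fold change was 0.83 and 0.28. Il1r1 held 391, 274, 370.5 and 132 CPM in radiated skin of week 3, where replicate 4 was within the control range of 109.6 to 135 CPM. At week 4 it held 283.5, 247, 266 and 343 CPM against 78.9 to 90.3 CPM, with no overlap. Il1rap, the partner chain shared by the receptors of IL-1, IL-33 and IL-36, was higher by 1.12 (SE 0.24, adjusted p = 0.00875) at week 3 and 0.88 (SE 0.14, adjusted p = 0.000531) at week 4. Il18bp, the secreted IL-18 binding protein, was higher by 0.45 (SE 0.16, adjusted p = 0.0451) at week 4.

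Genes downstream of the receptors and those that process the cytokines were looked at as lists. Of 19 genes of signal transduction from the receptors to NF-κB, 5 were higher and 2 lower at week 3 and 6 were higher and 5 lower at week 4, with a median of 0.12 and 0.13. Over all genes 27.2% and 48.4% were called, so nothing particular to the list is read from its counts. The adaptor Myd88 went from 19.7 ± 1.53 CPM (SD, n = 4) in control to 40.2 ± 4.82 CPM in radiated skin of week 4 (1.04, SE 0.11, adjusted p = 5.26e-05). Irak3, a kinase-like inhibitor of this pathway, rose by 1.07 (SE 0.12, adjusted p = 6.05e-05) at week 4 and did not pass at week 3 (-0.02, SE 0.18). Tollip, another inhibitor, was lower by -0.80 (SE 0.11, adjusted p = 0.00172) at week 3 and by -0.49 (SE 0.08, adjusted p = 0.000896) at week 4, as was Tab3, a partner of the kinase TAK1 (-0.78 and -0.45).

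Of 16 genes of inflammasomes and cytokine processing, 14 could be tested at week 3, where 9 were higher and 0 lower, and 13 at week 4, where 10 were higher and 2 lower. Over all genes 13.6% were called higher at week 3 and 24.2% at week 4, and here too a gene low in control skin could enter through radiated libraries alone. The sensor Nlrp3 rose from 3.36 ± 1.75 to 82.7 ± 31.1 CPM (SD, n = 4) at week 3 (4.66, SE 0.43, adjusted p = 0.000641) and from 1.67 ± 0.47 to 34.3 ± 15.9 CPM at week 4 (4.36, SE 0.39, adjusted p = 2e-05). Ctss, the protease cathepsin S, rose by 1.94 (SE 0.42) and 3.22 (SE 0.13). The adaptor Pycard fell by 0.87 (SE 0.10, adjusted p = 6.88e-05) and Nek7, a partner of NLRP3, fell by 0.66 (SE 0.08, adjusted p = 9.82e-05) at week 4. Casp1, the protease that cuts IL-1β and IL-18, did not pass at week 3 (-0.31, SE 0.21, adjusted p = 0.303) or week 4 (-0.28, SE 0.24, adjusted p = 0.357). Of this list, Cma1 and Mcpt4 are also in the mast cell list.

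A further list held 18 cytokines, chemokines and other genes known to be switched on by IL-1 family receptors. Of these 18, 10 were called higher at week 3 and 11 at week 4, and 6 were too low to test in each week. Over all genes tested, 13.6% were called higher at week 3 and 24.2% at week 4. Genes such as Csf3, near 0 in control skin, could be tested through their radiated libraries alone and then could only be higher, so these counts give no direction for the list. Csf3, which codes for the neutrophil growth factor G-CSF, had 0 to 2 counts in the control libraries of week 4, 2 of which were at 0, and 43 to 115 counts in the radiated ones, or 3.33 ± 1.42 CPM (SD, n = 4). Il6, which codes for interleukin-6, had 3 to 9 counts in the control libraries of week 4 and 229 to 782 in the radiated ones. The sums of neutrophil genes given above moved with these genes too, and their part in this was not tested.

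Against sham skin, all 16 radiated libraries share the 3 sham samples, so the weeks are given side by side. Hair follicle genes differed too, with a median sum of 9841 CPM in sham skin and of 24.4 to 316 CPM in the other groups, and their part in these differences was not tested. At week 1, 1 member passed, Il1b (2.68, SE 0.56, adjusted p = 0.0473), where 1.75% of genes passed and 0.543% passed as higher; the call was lost when any 1 library was left out and in the fit of all samples. At week 2, 1 passed, again Il1b (4.56, SE 1.03, adjusted p = 0.0401; 5.06% of genes, 2.16% higher). It was lost without any 1 library other than radiated replicate 1. At week 3, 6 members were higher: Il1b (7.65), Il1rl1 (4.58), Il33 (2.31), Il36g (1.58), Il1r2 (1.52, SE 0.40, adjusted p = 0.0326) and Il1rn (0.66, SE 0.18, adjusted p = 0.0367), against 18.2% of genes called and 10.4% called higher. Il1r2 and Il1rn were lost without radiated replicate 1 or 2 or any sham library, and Il33 without sham replicate 2. At week 4, 6 were higher, Il1b (6.93), Il1rl1 (5.09), Il36a (3.28), Il33 (2.45), Il36g (1.74) and Il36b (1.43), against 26.7% and 15.2%; Il36b was lost without sham replicate 2 and in the fit of all samples.

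Control skin was also compared with sham skin. At weeks 1 and 2, 0 of 10 members passed in edgeR, against 4.92% and 2.44% of genes (3.28% and 1.37% higher), with 2 members at an unadjusted p under 0.05 in each (27.3% and 21.1% of all genes) and 2 called by DESeq2 in each (16.6% and 11.0%). At week 3, 1 member was higher, Il1b (3.15, SE 0.59, adjusted p = 0.0171), against 11.4% of genes (5.18% higher), with 8.77, 2.13, 6.18 and 7.36 CPM over sham values of 0.26 to 1.00 CPM; it did not pass without sham replicate 3. At week 4, 1 was higher, Il1r2 (0.87, SE 0.19, adjusted p = 0.0455), against 3.65% (1.76% higher). It did not pass in the fit of all samples or without any 1 library other than sham replicate 1. Shared sham libraries again link these 4 comparisons. The differences of Il1b in weeks 1, 2 and 4 were 3.08 (SE 0.86), 2.22 (SE 0.85) and 2.22 (SE 0.55), with adjusted p of 0.0702, 0.180 and 0.0629. Its lowest sham library held 5 counts and its highest 23, so these folds rest on few reads.

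Per kb of transcript, which puts the genes on 1 scale, the order of the members differed between sham and radiated skin. In sham skin the mean level was highest for Il1rn (16.8 CPM per kb, 28.9% of the members' sum), then Il1r2 (10.8), Il33 (9.93) and Il18 (7.81), and lowest for Il1b (0.49, 0.849%). In radiated skin of week 4 it was highest for Il1b (60.0 CPM per kb, 25.2%), then Il33 (52.9), Il1rl1 (47.2) and Il1rn (19.2, 8.02%), and at week 3 Il1b made up 36.3%. Lengths are those of the longest coding transcript of each gene.

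**Figure D5:**
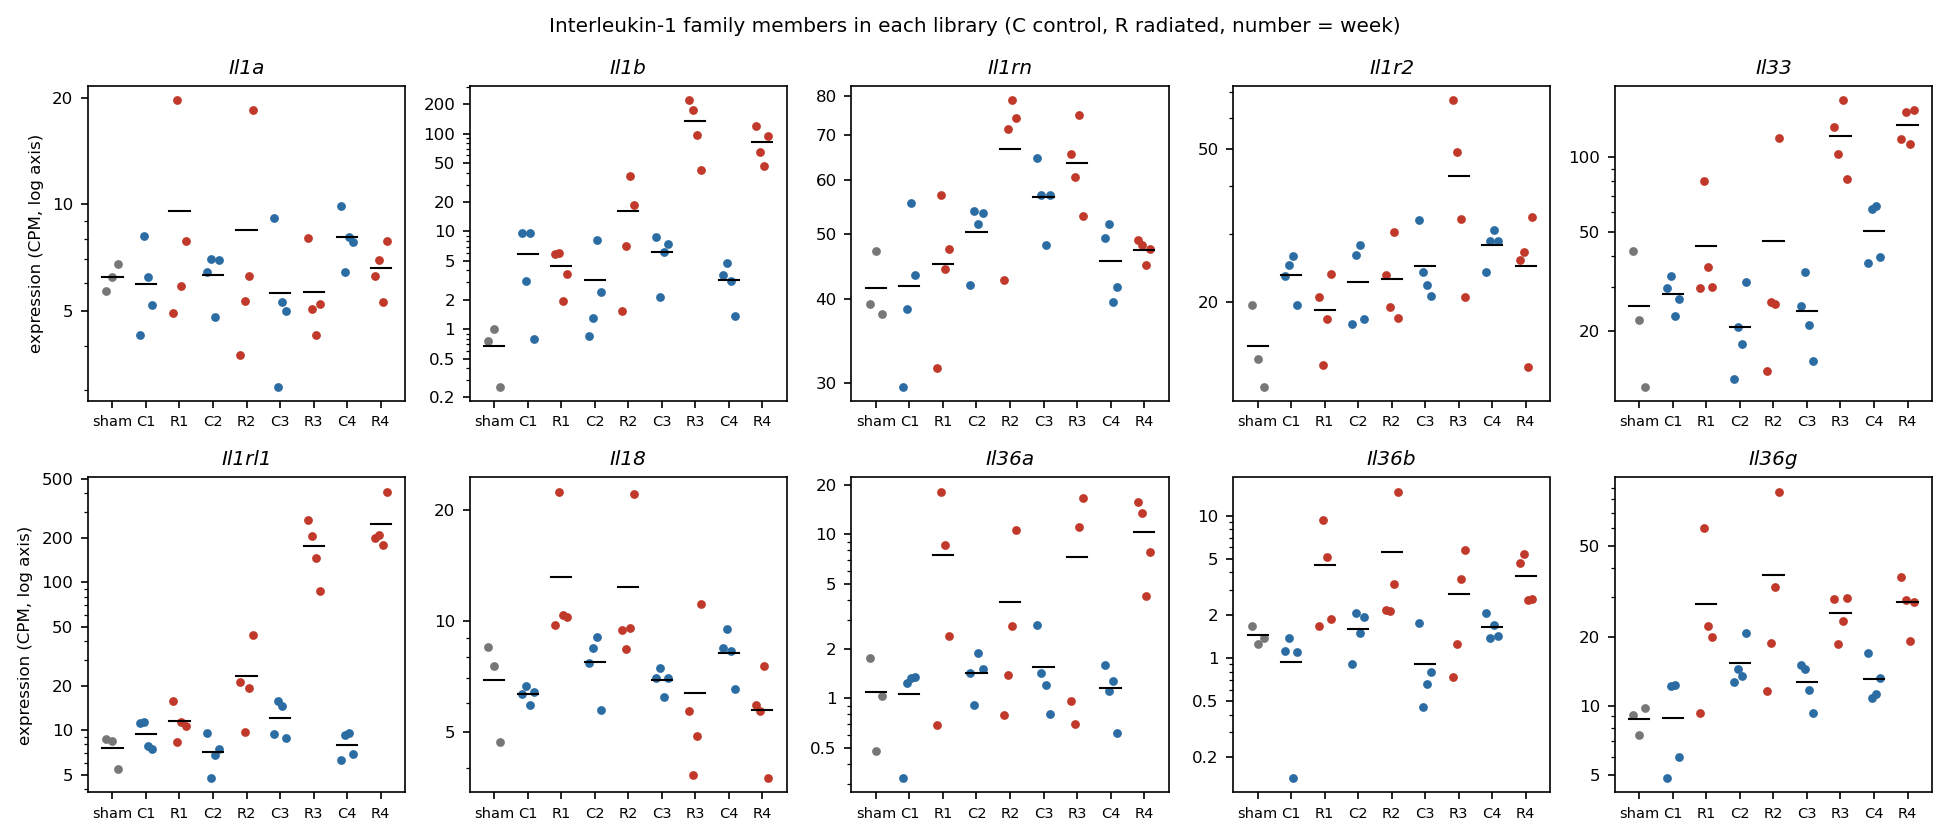
Expression of the 10 members in CPM (y axis, log scale) in each of the 35 libraries by group (x axis; C control, R radiated, the number is the week), with 1 point per library and a bar at the group mean. Il1b and Il1rl1 stand clear of all other groups in R3 and R4, Il1rn lies between 29.7 and 78.9 CPM in all groups, and in R1 and R2 a single library leads Il1a, Il18, Il36a, Il36b and Il36g.

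By pattern over the 9 group means of log2 CPM, scaled to mean 0 and SD 1, the genes nearest to Il1rl1 among 16406 candidates were Glis3 (root-mean-square difference 0.085) and Ddah1 (0.107), and those nearest to Il1b were Serpina3n (0.131) and Swap70 (0.146). Il33 was nearest to H2-Q10 (0.136) and Nfatc4 (0.193). The members closest to each other were Il1b and Il1rl1 (0.32). The nearest genes were Asprv1 and Ephx3 for Il18 (0.217 and 0.277), Serpinb3a and Tmprss11g for Il36a (0.249 and 0.262), Blmh and Ddias for Il36b (0.346 and 0.38) and Pglyrp3 and Klk9 for Il36g (0.328 and 0.347). Asprv1 codes for a protease of the upper epidermis, and Pglyrp3 for a peptidoglycan recognition protein of epithelia. Il1rn was nearest to Pim1 (0.314) and Diaph1 (0.347), Il1r2 to Msra (0.458) and Pacsin2 (0.462), and Il1a to Slc25a36 (0.436) and Rasal1 (0.465). These are descriptions over 9 means that share libraries.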

How the data were processed

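Per the labels' protocols and the submitters' processing notes, RNA from skin biopsies was sequenced and quantified by the authors with kallisto 0.46.2 after Trim Galore 0.6.7, on mm10, and DESeq2 was named. The transcriptome release and the step from transcripts to genes are not given in the sources used here. The authors deposited estimated counts for each gene, of which 29.5% to 32.5% per library were not whole. Here they were rounded and tested with edgeR 4.0.16 in R 4.3.3: filterByExpr, TMM scaling, quasi-likelihood F test, Benjamini-Hochberg adjustment over all genes, threshold 0.05. Radiated and control, radiated and sham, and control and sham samples of a week were each fitted alone; changes over weeks came from 1 fit of radiated and control libraries. An SE is the size of the log2 fold change divided by the square root of F. CPM are counts per 1000000 on TMM-scaled libraries. Ratios used exact permutation tests on CPM + 0.5, with sign-flip tests over the inferred pairs as an alternative. Pairs are inferred from 35 samples of 19 mice. Over 16406 genes, deviations within these pairs had mean correlations of 0.08, 0.24, 0.08 and -0.02 in weeks 1 to 4. Between libraries with different numbers the means were -0.03, -0.08, -0.02 and 0.01. The lowest value within a pair was -0.02, 0.18, -0.06 and -0.08, so all pairs were positive in week 2 only. In week 4 the pairs were no more alike than other libraries. No library pair of 595 was identical. The labels do not say that the 4 samples of a group came from separate cages or days, so p-values measure the spread between these mice. The members and gene lists were chosen with earlier results of these data known. Named were all members; of each pathway list the 2 largest rises and falls at week 4; Il1r1, Il1rap, Il1rl2, Il36rn, Il18r1, Il18bp and Casp1; and the 2 genes nearest to each member in pattern. Genes named outside this rule were chosen after their values were seen. Alternatives were total-count scaling, no filter, a replicate block, DESeq2 1.42.0, 1 fit of all samples and leaving out each library. Gene positions are GENCODE M21 (GRCm38).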

Additional observations from a re-analysis of the deposited data

Results flagged for a closer look

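On log2 CPM, in 6 of 80 groups of 4 libraries 1 library stood far from the rest by Dixon's criterion, where chance gives about 1 in 20. The lowest of the group was Il1rn in control replicate 1 of week 2 (41.9 CPM) and in radiated replicate 1 of week 2 (42.7 CPM), Il36a in control replicate 1 of week 1 (0.326 CPM) and Il36b in control replicate 3 of week 1 (0.143 CPM). The highest of the group was Il18 in radiated replicate 2 of week 1 (22.5 CPM) and in radiated replicate 4 of week 2 (22.1 CPM), the libraries that also led the IL-36 ligands. On CPM itself 7 groups met the criterion, of which 3 did on both scales: Il18 in both groups and Il36a. The other 4 were Il33 in radiated replicate 2 of week 1 (80.1 CPM) and replicate 4 of week 2 (119 CPM), Il36b in radiated replicate 4 of week 2 (14.7 CPM) and Il1rl1 in radiated replicate 4 of week 4 (411 CPM), all the highest of their group.

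The radiated minus control difference changed over the weeks for 3 members in edgeR's interaction test: Il1b (adjusted p = 0.004055), Il1rl1 (adjusted p = 6.598e-06) and Il18 (adjusted p = 0.0399). Of all genes, 15.6% passed. Il18 did not pass with the replicate block or without the libraries numbered 1, 2 or 3. Without those numbered 3, Il1b did not pass either. For Il1rl1 the step from week 2 to week 3 passed as well, with a change of 2.165 on the log2 scale.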

How the results depend on the processing

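The members called at week 3 against control skin were kept under total-count scaling, without the filter, with the replicate block and by DESeq2, which called 4 to 6; 1 fit of all 35 samples called 5, keeping 3 of the 4, losing Il36g and adding Il1r2 and Il36a. At week 4 the same 4 settings kept all 6, and the fit of all samples kept 4. Settings that moved a count of members by over 1.5 times were, for radiated against control skin, DESeq2 at week 1 (3) and the replicate block (2), DESeq2 (1) and the fit of all samples (1) at week 2; for radiated against sham, DESeq2 at week 1 (2), and the block (0), DESeq2 (4) and the fit of all samples (4) at week 2; for control against sham, DESeq2 at weeks 1 (2) and 2 (2), the block (0) and DESeq2 (3) at week 3, and the block (0), DESeq2 (2) and the fit of all samples (0) at week 4; and the block for the step from week 2 to 3 (2). Smaller moves included those from 6 to 5 (no filter, block) or 7 (DESeq2, all samples) for radiated against sham at week 3 and from 6 to 5 (all samples) at week 4. Sham mice share only a number with the others, so a block there joins unrelated mice and its values do not come from a pairing. The causes were not tested.

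Leaving out 1 library gave 0 to 1, 0 to 1, 4 to 5 and 6 to 7 members for radiated against control skin in weeks 1 to 4. It gave 0 to 0, 0 to 3, 3 to 6 and 5 to 7 for radiated against sham, and 0 to 1, 0 to 1, 0 to 2 and 0 to 2 for control against sham. The time course gave 1 to 4 without the libraries of 1 number (1 without those numbered 3), and the step from week 2 to 3 gave 0 to 2. Without 1 library the sign of some uncalled values turned: Il1rn ran from -0.020 to 0.284 at week 1 and from -0.002 to 0.152 at week 4, Il1a from -0.313 to 0.673 at week 2 and from -0.186 to 0.367 at week 3, Il1r2 from -0.153 to 0.145 at week 2 and from -0.339 to 0.048 at week 4, and Il18 from -0.498 to 0.083 at week 3. The ratio of Il1rn to Il1b at week 1 ran from -0.361 to 0.811, and that of Il1r2 to Il1r1 from -0.102 to 0.080. Total-count scaling moved the all-gene median by 0.14 at week 1 and 0.24 at week 3; at week 3 Il18 went to 0.158, and Il1rn (0.43, adjusted p = 0.0408) and Il1r2 (1.04, adjusted p = 0.0388) passed. Il36a, Il36b and Il1b in sham skin rest on few counts.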
